A study of Homo sapiens with 5 samples.

Results

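The epidermal differentiation complex is a run of neighbouring genes on human chromosome 1 that encode the building blocks of the cornified envelope, the crosslinked protein shell of terminally differentiated squamous cells, together with most of the S100A calcium-binding proteins. Its genes were taken as those with symbols starting SPRR, LCE or S100A, plus FLG, FLG2, IVL, LORICRIN, CRNN, CRCT1, TCHH, HRNR and RPTN, without pseudogenes. By this rule 52 of the 14812 genes with a named probe set were members, of 10 SPRR, 17 LCE, 16 S100A, 6 fused S100-type and 3 other envelope genes, and each was measured by 1 probe set. Of the 55 protein-coding genes that meet the rule in RefSeq, LCE1D, LCE7A and SPRR5 were not analysed here, and SPRR2C was left out as a pseudogene.

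The members were followed in single-cell clones of TE7 cells, a line derived from an esophageal carcinoma. The 3 CDH26 clones carried the pMIRNA1-puro-CDH26 construct, which expresses the cadherin CDH26, and the 2 control clones carried pMIRNA1-puro-control; each clone was grown from a single cell to confluence and then kept for 24 h in RPMI with 1.8 mM calcium. Calcium is itself a trigger of squamous differentiation, and all clones of both groups received it. One Affymetrix Gene 2.0 ST array was hybridised per clone, so precision rests on 5 arrays, and clones of 1 construct may differ for reasons unrelated to it. Values are logarithms, taken as log2, set against the average of both control clones. They hold no expression level, so a gene that TE7 cells do not transcribe and a gene transcribed alike in all clones look the same, and the squamous identity of the cells cannot be checked from marker levels. In a bulk sample, fewer cells of a type and less RNA per cell cannot be told apart.

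In keratinocytes, basal cells that leave the basal layer switch on involucrin and the small proline-rich (SPRR) proteins, then loricrin, filaggrin and the late cornified envelope (LCE) proteins, and transglutaminases crosslink these into the envelope. SPRR proteins act as flexible bridges in it and are abundant in esophagus and other internal stratified epithelia. S100A proteins are small dimeric calcium sensors with wider roles in inflammation, migration and membrane organisation, and several are made by basal cells and by simple epithelia as well.

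The construct check came first. For each gene the values are listed by clone number, CDH26 clones 1 to 3 and then control clones 1 and 2. CDH26 was at 2.87, 3.01 and 2.63 in the CDH26 clones, against 0.01 and −0.01 in the controls. The CDH26 transcript was therefore far above the control range in every clone labelled with it, at 2.84 ± 0.13 log2 units (SE; limma, adjusted p = 0.25), and the smallest of the 3 values was in clone 3.

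Across the complex the data showed a few higher transcripts and an otherwise flat centre. The median difference was 0.17 over the 16 S100A genes and 0.02 over the other 36 members. Over the 40 nearest flanking genes it was 0.17. SPRR1B and S100A8 were the only members whose mean was at least 1 log2 unit higher in CDH26 clones, 2 of 52 against 0.506% of all named genes, and 0 of 52 were that much lower, against 0.142%. Another 4 members, S100A14, S100A6, S100A2 and S100A10, were higher by between 0.25 and 1 log2 units, and all 4 were below 0.25 without control clone 2, at 0.24, 0.07, 0.22 and 0.08. With all clones that made 6 of 52 higher by at least 0.25 (background 6.99%) and 0 lower by as much (7.83%), and the remaining 46 lay between. The mean was higher in CDH26 clones for 38 members (47.9% of all named genes) and lower for 14 (49.5%), with a median difference of 0.04 beside 0 over all named genes. No member passed an adjusted p of 0.05 in limma with Benjamini-Hochberg adjustment over all named genes, and neither did any other gene (0.00%). At an unadjusted p of 0.05, 1 member, S100A11, was higher (background 3.51%) and 0 were lower (4.0%). The groups did not overlap, with the CDH26 clones above, in S100A11, S100A14, S100A16, S100A2, SPRR1B and IVL, or 6 of 52 beside 8.98% of all named genes. The CDH26 clones were below in 2, LCE1E and RPTN, beside 9.93%. Nearest CDH26 and control values were close in S100A16 (0.140 and 0.135), S100A2 (0.230 and 0.226) and IVL (0.028 and 0.018). They were also close in LCE1E (−0.019 and −0.014) and RPTN (−0.037 and −0.033). An exact permutation of 3 against 2 clones cannot go below p = 0.1, so none was used for single genes.

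**Figure D1:**
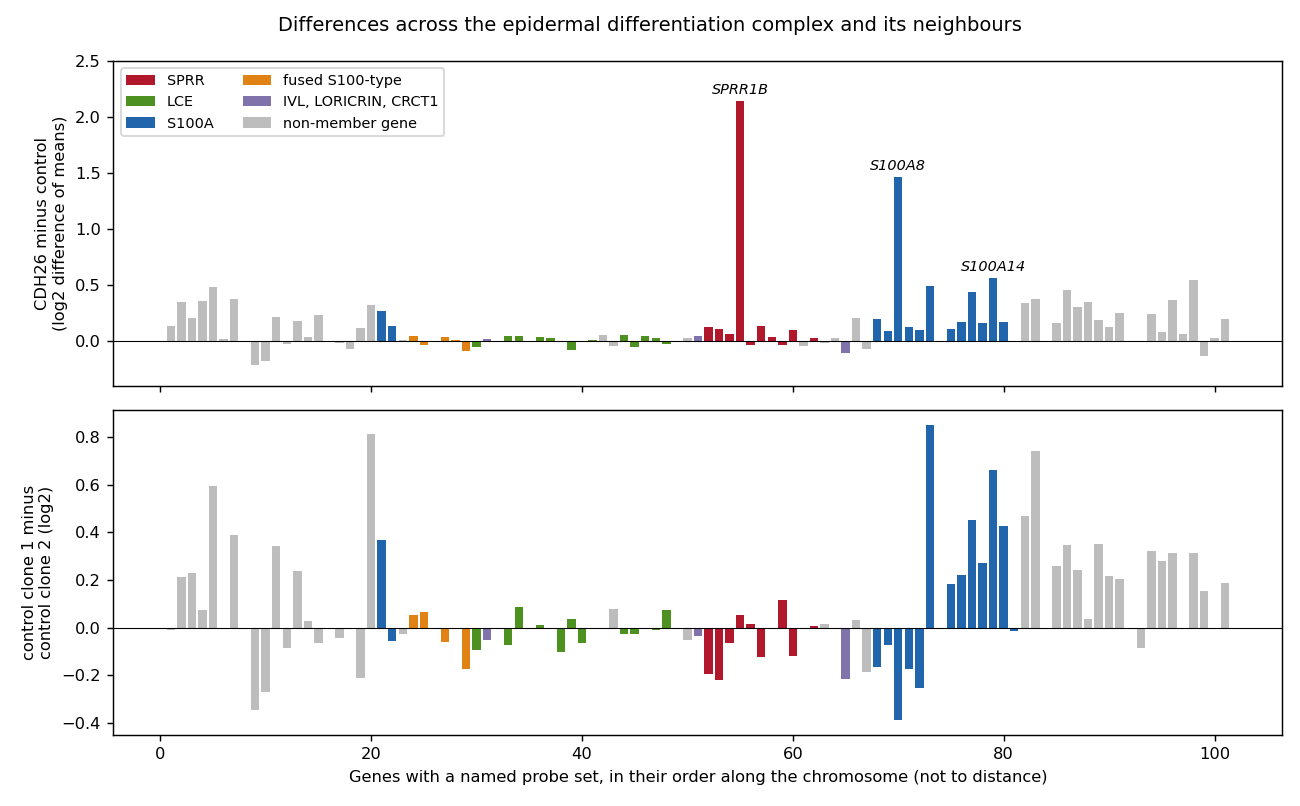
Log2 differences for genes with a named probe set in their order along the chromosome, not to distance. The top bars are CDH26 minus control means and the bottom bars control clone 1 minus control clone 2; colours mark sub-families, and grey bars are the 40 nearest flanking genes and 9 non-members inside the locus. SPRR1B at 2.14 and S100A8 at 1.47 stand above a flat centre, while the S100A genes at the right end and the grey genes beyond them differ between the control clones.

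The promoters of the 2 members with the largest differences are shown with that of SPRR1A, a close relative of SPRR1B whose mean difference was 0.11. Each is the 250 bases before the RefSeq start in GRCh38.p14, 5′ to 3′ on the strand of the gene, with matches to the AP-1 motif TGANTCA in capitals. AP-1 is the Fos and Jun dimer that mediates induction of many envelope genes. SPRR1B lies at chr1:153030953-153031202 (+), SPRR1A at chr1:152983831-152984080 (+) and S100A8 at chr1:153391074-153391323 (-); of the start sites listed for S100A8, the one with TATAAA in the last 60 bases was taken.
SPRR1B: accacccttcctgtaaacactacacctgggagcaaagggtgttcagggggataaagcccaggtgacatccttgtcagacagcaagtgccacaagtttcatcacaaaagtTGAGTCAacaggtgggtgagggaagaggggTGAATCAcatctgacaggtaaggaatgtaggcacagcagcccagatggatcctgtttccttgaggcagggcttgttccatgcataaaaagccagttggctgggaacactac
SPRR1A: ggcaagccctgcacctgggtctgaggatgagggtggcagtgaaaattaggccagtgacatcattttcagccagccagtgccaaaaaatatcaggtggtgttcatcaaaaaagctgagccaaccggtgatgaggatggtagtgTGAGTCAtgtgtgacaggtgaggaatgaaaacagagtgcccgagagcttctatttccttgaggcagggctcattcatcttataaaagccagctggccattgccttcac
S100A8: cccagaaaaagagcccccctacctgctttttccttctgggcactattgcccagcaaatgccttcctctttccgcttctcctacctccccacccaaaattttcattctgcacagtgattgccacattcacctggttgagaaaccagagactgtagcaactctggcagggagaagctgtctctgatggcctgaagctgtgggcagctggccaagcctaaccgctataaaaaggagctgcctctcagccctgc

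SPRR1B held 2 AP-1 matches, starting 141 and 111 bases before the start, and SPRR1A held 1, at 108. The pair of SPRR1 windows had identical bases in 169 of 267 aligned columns (63.3%). S100A8 had no match in any of its listed windows. Among the 48 members with a promoter in RefSeq, 17 (35.4%) held at least 1 AP-1 match on either strand, against 8.06% of 27305 genes. By sub-family these were 6 of 8 SPRR genes, 5 of 6 fused S100-type genes (CRNN, FLG, FLG2, RPTN and TCHH), both of IVL and LORICRIN, 4 of 16 S100A genes (S100A12, S100A2, S100A3 and S100A5) and 0 of 16 LCE genes; CRCT1, LCE1B, SPRR2D and SPRR2E had no entry. SPRR1B was the only member window with 2 matches, which 0.402% of all windows had. The log2 difference between the groups had a median of 0.05 over the 17 genes that held it and 0.04 over the 31 that did not. Other motifs, searched on both strands, were at 25% of 56 member windows against 22.3% of all windows for GATA (A or T, then GATAA or GATAG), 7.14% against 6.63% for the KLF-type box GGGTGTG, and 1.79% against 8.52% for the ETS core CCGGAAG. None of the AP-1 matches overlapped another of these motifs. A match is a run of letters and no evidence of binding.

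Among the SPRR genes, SPRR1B (cornifin B), an early envelope precursor that is switched on in squamous metaplasia, had the largest difference. It was at 1.86, 3.73 and 0.84 in the CDH26 clones, against 0.03 and −0.03 in the controls. All CDH26 clones were above both controls, but they spanned a wide range, from 1.79-fold over the control mean in clone 3 to 13.2-fold in clone 2. The mean difference was 2.14 ± 0.96 (SE; 95% interval −0.55 to 4.84), a 4.42-fold difference with an adjusted p of 0.626 in limma. It was 1.35 without CDH26 clone 2 and 2.79 without CDH26 clone 3, and 2.17 and 2.12 without control clone 1 or 2; leaving out a CDH26 clone moved it more than leaving out a control did.

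The other 9 SPRR genes were all within 0.14 log2 units of the control mean on average. SPRR2A was at 0.23, 0.33 and −0.15 in the CDH26 clones, against −0.06 and 0.06 in the controls, with CDH26 clone 3 the lowest of the 5; the difference of 0.14 ± 0.17 (SE) ranged from 0.04 without CDH26 clone 2 to 0.28 without CDH26 clone 3. SPRR2F was at 0.67 in CDH26 clone 1 only, with −0.09 and −0.28 in clones 2 and 3, against −0.06 and 0.06 in the controls, so the groups overlapped. SPRR4, a member described in skin after ultraviolet light, differed by 0.13 ± 0.07 (SE) and tied with control clone 2 in CDH26 clone 1; the difference became 0.03 when control clone 1 was left out and 0.23 when control clone 2 was. SPRR1A, which encodes cornifin A, differed by 0.11 ± 0.07, with 0.11, 0.10 and 0.10 in the CDH26 clones, against −0.11 and 0.11 in the controls. SPRR3, the abundant esophageal member also called esophagin, differed by 0.06 ± 0.04. SPRR2B, SPRR2D, SPRR2E and SPRR2G differed by between −0.04 and 0.04. The median over the 9 genes was 0.06. Some SPRR2 and LCE genes, like the S100A7 pair, are close copies of one another, and whether each probe set reads only its own copy was not tested.

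S100A8 (calgranulin A) is a calcium and zinc binding alarmin of neutrophils, monocytes and stressed keratinocytes that pairs with S100A9 as calprotectin. It was at 2.02, 2.30 and 0.08 in the CDH26 clones, against −0.19 and 0.19 in the controls. CDH26 clones 1 and 2 were 4.06-fold and 4.93-fold above the control mean, whereas clone 3 lay between the controls, so the groups overlapped. The mean difference was 1.47 ± 0.80 (SE; 95% interval −0.79 to 3.73; limma, adjusted p = 0.626). Leaving out 1 clone at a time, it ranged from 1.05 without CDH26 clone 2 to 2.16 without CDH26 clone 3.

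Its partner S100A9 was at 0.23, 0.45 and −0.09 in the CDH26 clones, against −0.08 and 0.08 in the controls. CDH26 clone 2 was again the highest and clone 3 the lowest of the CDH26 clones, over a narrower range, with a difference of 0.20 ± 0.19 (SE). It was 0.07 without CDH26 clone 2, 0.34 without CDH26 clone 3 and 0.11 without control clone 1. S100A12, the third calgranulin and a ligand of the receptor RAGE, was at 0.16, 0.15 and −0.03 in the CDH26 clones, against −0.04 and 0.04 in the controls. In all 3 calgranulins the higher values were in CDH26 clones 1 and 2, while clone 3 was within the control range or just below it. Clone 3 was the lowest CDH26 clone in 18 of the 52 members, beside 28.8% of all named genes. S100A7 (psoriasin) and S100A7A (koebnerisin), antimicrobial relatives found in psoriatic skin, differed by 0.10 ± 0.10 and 0.13 ± 0.07. S100A7A was at 0.11, 0.09 and 0.19 in the CDH26 clones, against −0.09 and 0.09 in the controls, a tie between CDH26 clone 2 and control clone 2; its difference became 0.04 when control clone 1 was left out and 0.22 when control clone 2 was.

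**Figure D2:**
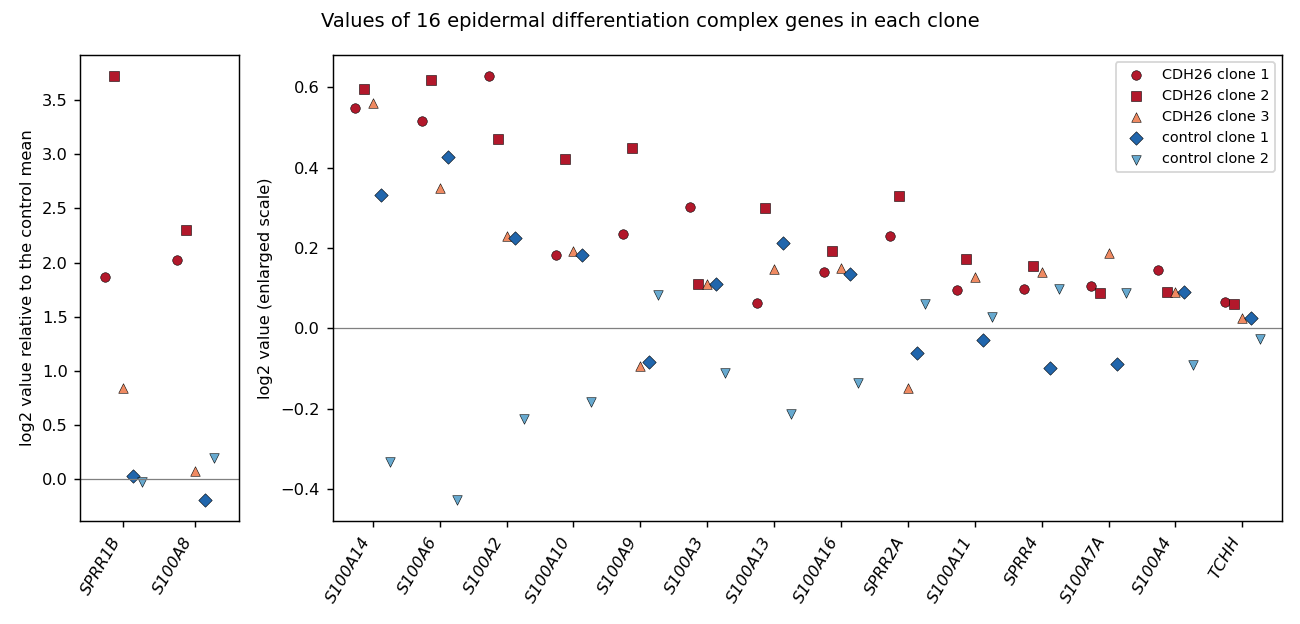
Log2 value relative to the control mean in each of the 5 clones for 16 members, on separate scales for SPRR1B and S100A8 (left) and for the other 14 (right); each symbol is 1 array. CDH26 clones 1 and 2 are far above the controls in both genes on the left and clone 3 in SPRR1B alone, and on the right control clone 1 often sits close to the CDH26 clones with control clone 2 below.

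Since calgranulins mark myeloid cells, the leukocyte markers are given beside them. Of 12 listed, 5 were measured, with a median difference of 0.01 and 0 passing the adjusted test. CD68, a lysosomal glycoprotein of macrophages and other cells, was at 1.5, 1.14 and 0.59 in the CDH26 clones, against −0.21 and 0.21 in the controls, and was above both controls in each. CD14, the monocyte coreceptor, differed by −0.04 ± 0.04 (SE). Their part in the S100A8 result was not tested, and levels at or near 0 cannot be read from centred values.

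At the end of the locus nearest S100A1 lie 9 neighbouring S100A genes, from S100A6 to S100A1. The mean was higher in CDH26 clones for 7 of them (background 47.9%) and lower for 2 (49.5%). None was at an unadjusted limma p under 0.05 (background 3.51% higher and 4.0% lower). In 3 of the 9 every CDH26 clone was above both controls, beside 8.98% of all named genes. The same held for 7 of the 20 nearest named genes beyond S100A1. S100A14, a member found at epithelial cell borders, was at 0.55, 0.59 and 0.56 in the CDH26 clones, against 0.33 and −0.33 in the controls. The CDH26 clones were nearly identical and above both controls, and the gap between the controls, 0.66, was larger than the difference of means, 0.57 ± 0.22 (SE; adjusted p = 0.626). That difference was 0.90 without control clone 1, where limma gave an adjusted p of 0.0406 with the lone control assumed to vary like the CDH26 clones, and 0.24 without control clone 2.

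S100A6 (calcyclin), linked to proliferating and motile cells, was at 0.52, 0.62 and 0.35 in the CDH26 clones, against 0.43 and −0.43 in the controls. Control clone 1 lay inside the CDH26 range, and the difference of 0.49 ± 0.29 (SE) became 0.92 without control clone 1 and 0.07 without control clone 2. S100A2, a p63 target of basal squamous cells, was at 0.63, 0.47 and 0.23 in the CDH26 clones, against 0.23 and −0.23 in the controls. CDH26 clone 3 exceeded control clone 1 only narrowly there, and the difference of 0.44 ± 0.20 was 0.67 and 0.22 without control clone 1 and 2. S100A16, which binds calcium weakly, was at 0.14, 0.19 and 0.15 in the CDH26 clones, against 0.14 and −0.14 in the controls, with a difference of 0.16 ± 0.09 that became 0.30 without control clone 1 and 0.03 without control clone 2.

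S100A13, which helps release FGF1 from cells, was at 0.06, 0.30 and 0.15 in the CDH26 clones, against 0.21 and −0.21 in the controls. Its difference of 0.17 ± 0.16 (SE) was 0.38 without control clone 1 and turned to −0.04 without control clone 2. S100A3, known from the hair cuticle, was at 0.30, 0.11 and 0.11 in the CDH26 clones, against 0.11 and −0.11 in the controls. S100A4 (metastasin), which binds non-muscle myosin, was at 0.15, 0.09 and 0.09 in the CDH26 clones, against 0.09 and −0.09 in the controls. In both of these genes CDH26 clones 2 and 3 tied with control clone 1; the differences of 0.17 and 0.11 were 0.28 and 0.20 without control clone 1 and 0.06 and 0.02 without control clone 2. S100A5 and S100A1, the heart and muscle member, were flat at −0.01 each.

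The control clones also differed in genes outside the family at that end. Of the 9 neighbouring genes from S100A6 to S100A1, 7 were higher in control clone 1 than in control clone 2, with a median gap of 0.27. Of the 20 nearest named genes beyond S100A1, 15 were, with a median gap of 0.23, against 42.8% of all named genes with a median of 0. These 20 genes were also higher in CDH26 clones in 17 cases (background 47.9%), by a median of 0.19, against 0.17 for the 9 S100A genes. GATAD2B, a subunit of the NuRD chromatin complex just outside the locus, was at 0.54, 0.48 and 0.34 in the CDH26 clones, against 0.17 and −0.17 in the controls. At the other end, 9 of the 20 nearest genes beyond S100A10 were higher in control clone 1, with a median gap of 0, and their median CDH26 difference was 0.13. The flanking genes were taken after the values had been seen, and their part in the S100A differences was not tested.

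S100A10 and S100A11 lie at that other end, away from the remaining S100A genes. S100A10 (p11), the annexin A2 partner at the plasma membrane, was at 0.18, 0.42 and 0.19 in the CDH26 clones, against 0.18 and −0.18 in the controls. CDH26 clone 1 tied with control clone 1, and the difference of 0.27 ± 0.15 (SE) became 0.45 without control clone 1 and 0.08 without control clone 2. S100A11 (calgizzarin), a growth regulator of keratinocytes, was at 0.10, 0.17 and 0.13 in the CDH26 clones, against −0.03 and 0.03 in the controls. All CDH26 clones were above both controls, which lay close together. The difference was small, 0.13 ± 0.04 (95% interval 0.03 to 0.23), or 1.10-fold, with an unadjusted p of 0.021 and an adjusted p of 0.626 in limma. The unadjusted limma p was 0.0597 without CDH26 clone 3, 0.0909 without control clone 1 and 0.14 among genes without ties between arrays.

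Over all 16 S100A genes 14 had a higher mean in CDH26 clones (background 47.9%) and 2 a lower one (49.5%). The median difference was 0.17 beside 0 over all named genes. It was also 0.17 over the 40 nearest flanking genes, of which 31 were higher and 7 lower. By clone, the S100A median stood at 0.15, 0.19 and 0.12 in the CDH26 clones, against 0.05 and −0.05 in the controls. Leaving out control clone 1 gave 0.24, and leaving out control clone 2 gave 0.10. The 5 listed S100-related genes outside the locus, among them S100B (0.02 ± 0.02, SE) and the S100P-binding gene S100PBP (−0.07 ± 0.13), had a median of 0.01.

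**Figure D3:**
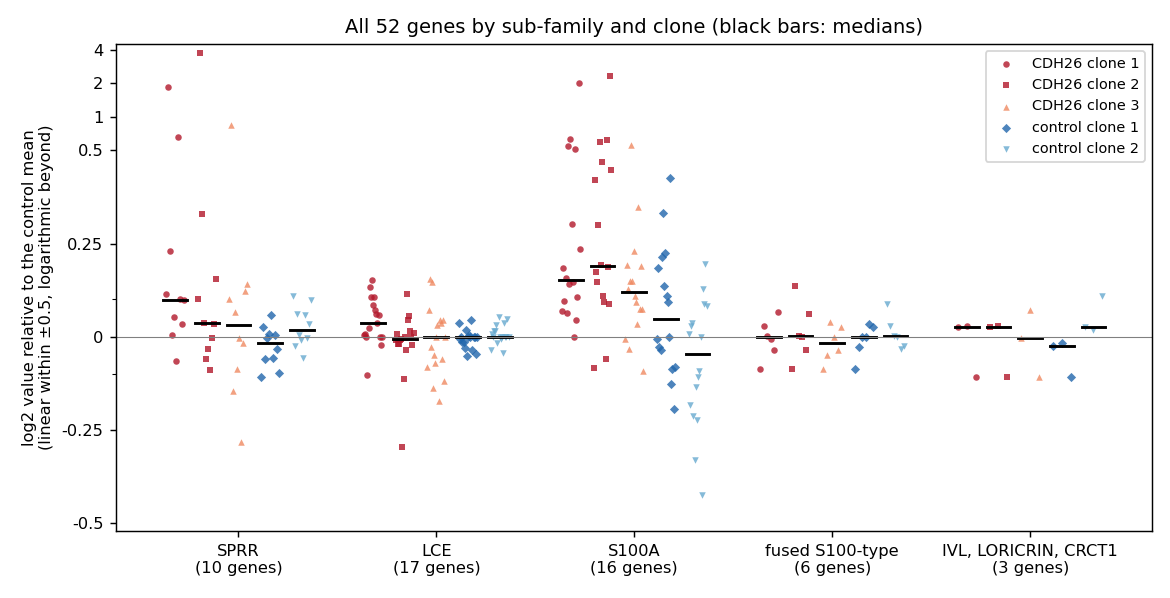
All 52 members by sub-family, with 1 point per gene and clone and black bars for the medians; the vertical axis is the log2 value relative to the control mean, linear within ±0.5 and logarithmic beyond. The S100A genes have the highest medians in the CDH26 clones, SPRR has 1 far gene in each CDH26 clone, and the LCE and fused S100-type genes lie around 0.

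The late envelope genes were flat. All 17 LCE genes, LCE1A, LCE1B, LCE1C, LCE1E, LCE1F, LCE2A, LCE2B, LCE2C, LCE2D, LCE3A, LCE3B, LCE3C, LCE3D, LCE3E, LCE4A, LCE5A and LCE6A, differed by less than 0.1 log2 units, between −0.08 (LCE2B) and 0.05 (LCE1F), with a median of 0.00. The LCE1, LCE2 and LCE4 to LCE6 genes are mainly epidermal, and the LCE3 genes are induced by barrier injury and in psoriasis. In 11 of them the mean was higher in CDH26 clones and in 6 lower. The 95% intervals together ran from −0.46 to 0.30, which does not exclude shifts of that size in single LCE genes.

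The fused S100-type proteins carry an S100 domain at the start of a long repeat region and bundle keratin or fill the envelope. FLG (filaggrin) was at 0.03, 0.14 and −0.05 in the CDH26 clones, against −0.03 and 0.03 in the controls, and FLG2 and HRNR (hornerin) differed by 0.01 and −0.00. TCHH (trichohyalin), the scaffold protein of the hair root sheath, was at 0.07, 0.06 and 0.03 in the CDH26 clones, against 0.03 and −0.03 in the controls, and differed by 0.05 ± 0.03 (SE). RPTN (repetin) was −0.04 in every CDH26 clone, just below the lower control at −0.03. CRNN (cornulin), a marker of differentiated esophageal squamous cells, was at −0.09 in all CDH26 clones and in control clone 1, against 0.09 in control clone 2. These genes had a median difference of 0.01.

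The 3 other envelope genes gave no common direction. IVL (involucrin), the early scaffold of the envelope, was at 0.03, 0.03 and 0.07 in the CDH26 clones, against −0.02 and 0.02 in the controls, above both controls, with a difference of 0.04 ± 0.03 (SE). LORICRIN, its main late component, was at −0.11 in all CDH26 clones and in control clone 1, against 0.11 in control clone 2. Without control clone 1 that tie gave LORICRIN a difference of −0.22 and an adjusted p of 0.0457 in limma, which rests on the single value of control clone 2. CRCT1, a cysteine-rich protein of esophageal epithelium, differed by 0.02 ± 0.03. Ties of this kind between at least 2 arrays, within 1e-05, occurred in 30 of the 52 members and in 7955 of all 14812 named genes. The other 22 members had a different value on every array, beside 46.3% of all named genes.

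Genes that assemble the envelope had medians near 0. Of 27 crosslinking and scaffold genes listed, 17 were measured, 10 with a higher and 7 with a lower mean in CDH26 clones and a median of 0.01. CST6 (cystatin M/E), an inhibitor of the proteases that control envelope assembly, was at −0.21 ± 0.11 (SE), and the transglutaminase TGM7 at 0.08 ± 0.04. CSTA (cystatin A), an envelope precursor, was named after its values were seen. It was at 0.85, 0.85 and −0.00 in the CDH26 clones, against −0.23 and 0.23 in the controls, so clone 3 lay between the controls. Clone 3 was the lowest CDH26 clone in 6 of the 17 measured genes, beside 28.8% of all named genes. Of 25 processing and lipid genes 8 were measured, with a median of 0.01; ELOVL4, an elongase for the very long fatty acids of barrier ceramides, was at 0.90 ± 0.28 and the protease ST14 (matriptase) at −0.15 ± 0.09. None of these genes passed the adjusted test.

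Regulators of the locus were measured in 32 of 46 cases, with 19 higher and 13 lower means and a median of 0.09; 0 passed the adjusted test, and at an unadjusted p of 0.05 there were 4 of 32 higher (background 3.51%) and 2 of 32 lower (4.0%). The shares of all named genes with a higher and a lower mean were 47.9% and 49.5%. EHF, an epithelial ETS factor, was at 1.45, 1.43 and 0.65 in the CDH26 clones, against 0.09 and −0.09 in the controls, above both controls in each clone and least so in clone 3. FOSB, an AP-1 subunit, differed by −0.12 ± 0.03 (SE). Of the 22 binding partners and receptors of S100 proteins, 15 were measured with a median of −0.01, and EZR (ezrin), a membrane to actin linker, was at −0.24 ± 0.06. The 21 measured of 25 other genes listed in and around the locus had a median of 0.03, with TDRKH at 0.23 ± 0.07.

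Markers of squamous layers are given for comparison. The differentiated squamous list, 9 of 12 measured, had a median of 0.05, with KRT1 at 0.20 ± 0.09 (SE) and KRT13 at 0.92 ± 0.55; KRT13, the suprabasal esophageal keratin, was at 0.79, 1.07 and 0.92 in the CDH26 clones, against 0.83 and −0.83 in the controls, so control clone 1 lay within the CDH26 range. The basal list, 5 of 11 measured, had a median of 0.45, with KRT14 at 2.72 ± 0.43 and KRT15 at 0.45 ± 0.24. In 4 of these 5 genes control clone 1 was above control clone 2, with a median gap of 0.47 over the list. KRT15 was at 0.35 in both CDH26 clone 1 and control clone 1, and at −0.35 in control clone 2. KRT14 was at 3.04, 3.11 and 2.02 in the CDH26 clones, against 0.24 and −0.24 in the controls. Columnar, mesenchymal and endothelial lists had medians of 0.05 (8 of 14), 0.02 (3 of 10) and −0.00 (2 of 5). Their 2 genes with the smallest p were TFF3 and TFF1 at 0.13 each, LUM at 1.59 ± 0.42 and THY1 at −0.16 ± 0.10, and VWF and KDR at 0.01 and −0.02. None passed the adjusted test, and the part of these cell type markers in the results above was not tested.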

How the data were processed

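RNA of 5 TE7 clones was measured on 1 array each. The authors' deposited table holds log values, taken here as log2, centred by the authors on the mean of the control clones (control values sum to 0 in every row, within 1e-06); the log base is not recorded. Per the submitters' processing notes the software was Affymetrix Expression Console; the sources used here give no background correction, summarisation or genome build. The platform annotation named 15835 of 44607 probe sets, all with current RefSeq symbols; probe sets of a gene were averaged. All 14812 genes were tested with limma 3.58.1 in R 4.3.3 (group as the only term, two-sided, Benjamini-Hochberg), after a test on simulated data. The members and lists were chosen with earlier results of these data known. Values in every clone were given for CDH26, the 12 members with the smallest p and the 4 next largest differences, and 2 genes with the smallest p were named per list; others shown were chosen after their values were seen. Alternatives were median centring, robust variance, array weights, a replicate block, left-out clones, other probe set rules, untied genes, natural logarithms and a threshold of 0.1. Promoters are RefSeq, GRCh38.p14.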

Additional observations from a re-analysis of the deposited data

How the results depend on the processing

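With each clone left out in turn, the CDH26 difference ran from 2.75 to 2.94, the number of named genes past the adjusted threshold from 0 to 186 and of members from 0 to 2 (S100A14 and LORICRIN, without control clone 1). With CDH26 clone 1, 2 or 3 left out, members at an unadjusted limma p under 0.05 numbered 1, 1 and 5 higher and 1, 0 and 0 lower. Members without overlap ran from 9 to 19 above and from 2 to 6 below over all left-out clones. Fewer clones make such separation likelier in any gene. The matching shares of all named genes were not taken under these settings, so these counts are no result about the members. Medians ran from −0.00335 to 0.0284 for LCE, 0.10 to 0.24 for S100A, −0.00664 to 0.0107 for fused S100-type, 0.031 to 0.13 for SPRR and −0.00996 to 0.0403 for IVL, LORICRIN and CRCT1. Restricted to genes without ties between arrays, CDH26 passed at 2.84 (adjusted p = 0.0106) as the 1 gene called, with 2 members higher at an unadjusted p of 0.05 and 1 member wholly below. Members higher at that p numbered 2 with array weights and 5 with the clone number as a replicate block. No control has number 3, so the block gave the same differences as leaving out CDH26 clone 3, such as 2.16 for S100A8. For these counts, too, the shares of all named genes were not taken. Deviations of same-numbered clones from their group means correlated at −0.22 and −0.20. With 2 controls, the deviation of one is the reverse of the other, so both values rest on 1 control contrast. They cannot settle whether the numbers pair the clones. Read as natural logarithms, the S100A median was 0.24, SPRR1B 3.09 and S100A8 2.12 on the log2 scale, so that every fold given would lie further from 1, and S100A9 (0.28) and S100A3 (0.25) would join the members higher by at least 0.25. Of 202 values of the 16 genes under alternatives, 1 reversed (S100A13, at −0.043 without control clone 2 and 0.384 without control clone 1). Only array weights, the replicate block and left-out clones could reverse a sign. The other alternatives left each difference unchanged or, for natural logarithms, only rescaled it, so 1 of 202 overstates the stability. Quantile normalization, a variance trend and a brightness floor were not run, since centred values hold no levels. Centring on array medians, which were 0, gave the main values.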

Other observations

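Genes inside the locus that the member rule leaves out were as flat as its centre, with a median difference of 0.01 over 9 genes. PGLYRP3, a peptidoglycan recognition protein with antibacterial activity that lies next to LORICRIN, was at 0.21, 0.41 and 0.02 in the CDH26 clones by number, against 0.02 and −0.02 in the controls. Its value in CDH26 clone 3 tied with control clone 1. Its neighbour PGLYRP4 was at −0.07 and the pseudogene SPRR2C at −0.04. These genes were named after their values had been seen.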
